A study of Mus musculus with 6 samples.

Results

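The epidermal growth factor (EGF) receptors and their ligands were examined in intestinal crypts of 3 WT and 3 Mtg16-/- mice, through 10 genes listed by name: the ErbB receptors Egfr, Erbb2 and Erbb3, the ligands Areg, Ereg, Hbegf, Btc, Tgfa and Nrg1, and the receptor inhibitor Lrig1. These are 10 of the 24736 genes of the deposited table, and 9 of them reached the mean level required for testing. MTG16 is a transcriptional co-repressor encoded by Cbfa2t3, and the study asked how its loss alters the exit of crypt stem cells from their niche and their early choice of fate. The WT group was labelled wild-type and untreated. The Mtg16-/- group is labelled a CRISPR-induced Mtg16 knock-out, whereas the methods describe donated Mtg16-/- mice, and neither source names a Cre driver, a strain or a cell type limit. All 6 mice were males of 12 weeks, and crypts came from the full length of the gut after incubation in cold EDTA, so small and large intestinal crypts were not kept apart. Each library was taken as 1 mouse and came from total RNA depleted of ribosomal RNA. Levels are given as TPM, a measure of transcript abundance that is scaled for transcript length and to the same total in every library.

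ErbB receptors are tyrosine kinases at the cell surface that act as dimers. EGFR binds TGFA, AREG, EREG, HBEGF and BTC, ERBB3 binds neuregulins and has little kinase activity of its own, and ERBB2 has no known ligand and serves as the preferred partner. In crypts, EGFR signaling through the RAS-ERK kinases drives proliferation of stem and progenitor cells, and LRIG1, a membrane protein that lowers ErbB receptor levels, marks crypt base cells.

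Some properties of the libraries bear on what follows. Cbfa2t3 had a TPM between 3.67 and 6.69 in the WT libraries and between 3.23 and 6.43 in those labelled Mtg16-/-. A sum over all exons cannot show a missing exon, so the genotypes rest on the labels. The 10 epithelial markers summed to between 10560 and 13304 TPM in each library. Of the 12 stromal markers the highest single value was 13.9 TPM, for Vim, Lum was listed at 0 throughout, and the sum ran from 14.4 to 19.6 TPM in WT and from 16.1 to 22.6 TPM in Mtg16-/-. None of the 7 glial and neural markers exceeded 1.07 TPM, and Sox10 was listed at 0. The sum of 10 enterocyte markers was 34780 TPM in WT replicate 1 and between 6022 and 14599 TPM in the other 5 libraries, and the sum of 12 immune markers was highest in the same library as well (155 against 69.1 to 139 TPM). By genotype, the enterocyte sum ran from 11785 to 34780 TPM in WT and from 6022 to 11993 TPM in Mtg16-/-, with overlap. All 10 enterocyte markers had negative log2 fold changes (median -1.15) and none was called, beside 6581 negative values among 12268 tested genes. The 10 Paneth cell markers summed to between 10397 and 24750 TPM in WT and between 29779 and 38833 TPM in Mtg16-/-, and the 10 stem cell markers to between 975 and 1658 TPM and between 1774 and 2365 TPM. In such bulk samples, fewer cells of a type and less RNA per cell cannot be told apart.

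No member passed the test. At an adjusted p under 0.1, limma's moderated test on log2(TPM + 1) called 0 of the 9 tested members, against 4 of all 12268 tested genes (0.0326%). At an unadjusted p under 0.05 the count was again 0 of 9, where 14.6% of all tested genes had such a value. It was 1 of 9 in each of the fits without WT replicate 2, without WT replicate 3 and without Mtg16-/- replicate 1. In these fits 1730, 1469 and 2022 of all 12268 tested genes had such a value. The values of the WT and Mtg16-/- mice overlapped in all 9 members, while in 21.0% of all tested genes they did not. The median log2 fold change (Mtg16-/- relative to WT) was 0.0045 over the 9 members and -0.026 over all tested genes. Adjusted p ranged from 0.380 to 0.995.

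**Figure D1:**
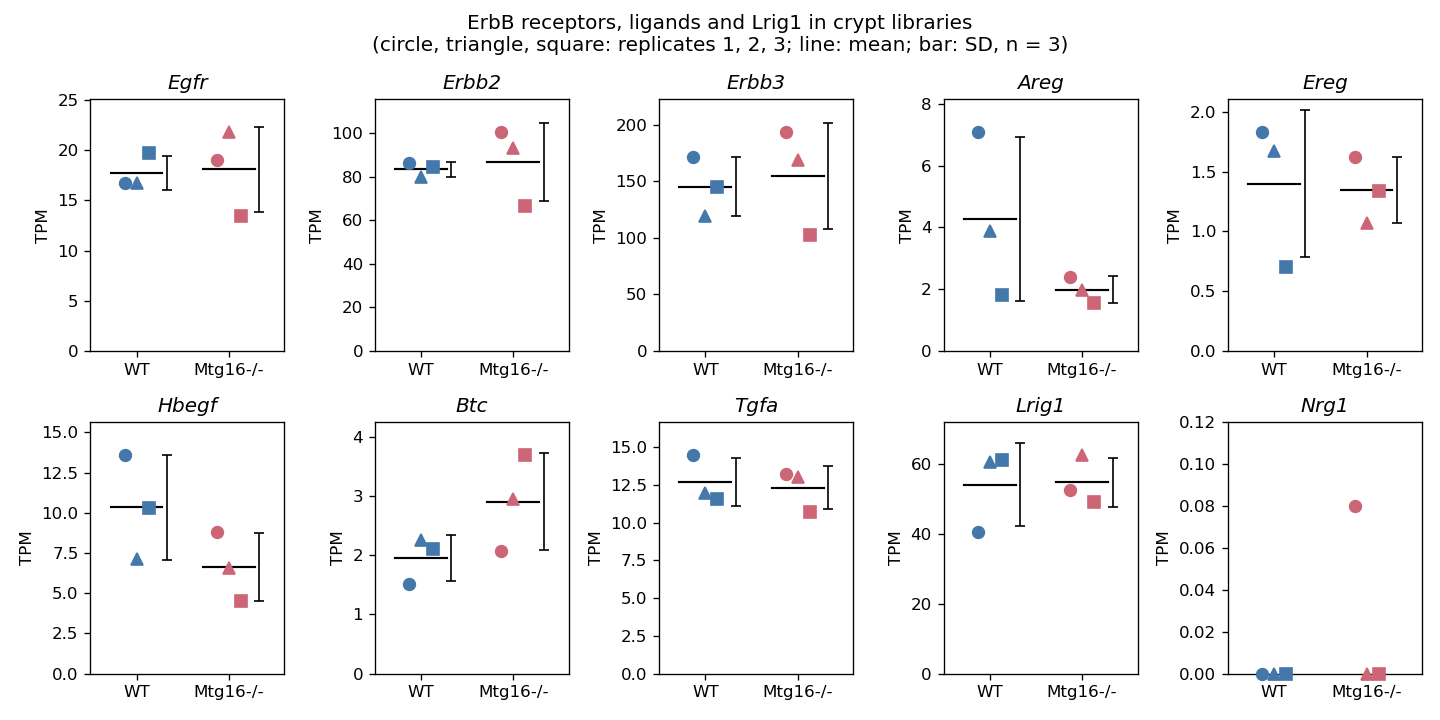
TPM of each gene (vertical axis, starting at 0) in the 3 WT and 3 Mtg16-/- libraries, 1 point per mouse, with the group mean as a line and the SD (n = 3) as a bar beside it, except for Nrg1. The points of both genotypes overlap in every panel, and the square of Mtg16-/- replicate 3 is the lowest point for Egfr, Erbb2, Erbb3, Areg, Hbegf and Tgfa.

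The tested members covered a wide span of expression levels. Ordered by mean TPM over the 6 libraries they were Erbb3 (150.1), Erbb2 (85.0), Lrig1 (54.4), Egfr (17.9), Tgfa (12.5), Hbegf (8.48), Areg (3.12), Btc (2.43) and Ereg (1.37). Erbb3 lay above 92.3% of tested genes and Ereg above 3.20%. At the top of this order, Erbb3, Erbb2 and Lrig1 each had a range over the libraries that did not touch that of the next gene. The ranges of Egfr and Tgfa, of Tgfa and Hbegf and of Hbegf and Areg overlapped, although each of these pairs kept its order in all 6 libraries. Areg and Btc did not differ beyond their spread, with Areg the higher in 3 of 6 libraries, and Btc was above Ereg in 5 of 6.

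Among the receptors, Erbb3 was the most abundant transcript in every library. Erbb3 (chromosome 10, 128567523 to 128589635 in GRCm38) had a TPM of 171, 119 and 145 in WT replicates 1 to 3, and of 194, 169 and 103 in Mtg16-/- replicates 1 to 3. The Mtg16-/- libraries held both the highest and the lowest value, so the WT values lay inside their range. The log2 fold change was 0.062 (standard error, SE, 0.25, limma adjusted p = 0.922), with a 95% interval from 0.704-fold to 1.55-fold on the TPM + 1 scale.

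Erbb2 (chromosome 11, 98412484 to 98437716), the shared dimer partner, had a TPM of 86.3, 79.65 and 84.2 in WT and of 100.4, 93.0 and 66.5 in Mtg16-/-. The WT values were close together, and the Mtg16-/- values lay on both sides of them. Its log2 fold change was 0.034 (SE 0.17, limma adjusted p = 0.938), with an interval from 0.785-fold to 1.33-fold. At its 3′ end Erbb2 shares 9 exonic bases, 0.173% of its exonic length, with Mien1 on the opposite strand, which had a TPM of 93.05 to 100.5 in WT and of 61.16 to 71.75 in Mtg16-/-.

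Egfr (chromosome 11, 16752203 to 16913907), the receptor of the EGF-type ligands, had a TPM of 16.75, 16.74 and 19.7 in WT and of 19.0, 21.8 and 13.45 in Mtg16-/-. As for the other receptors, Mtg16-/- replicate 3 was lowest and another Mtg16-/- library highest. The log2 fold change was 0.0045 (SE 0.19, limma adjusted p = 0.994), and the interval, from 0.744-fold to 1.35-fold, bounds the change that these libraries allow.

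The shares of the receptors overlapped between the genotypes and were not tested. Erbb3 held between 55.3% and 62.4% of the summed receptor TPM, Erbb2 between 31.5% and 37.0%, and Egfr between 6.06% and 7.91%, over all 6 libraries. The mean share of Erbb3 was 58.7% ± 3.60 in WT and 59.2% ± 2.80 in Mtg16-/- (SD, n = 3 each). The summed receptor TPM was 246 ± 29.5 in WT and 259.8 ± 68.2 in Mtg16-/- (SD, n = 3 each), from 183 in Mtg16-/- replicate 3 to 313 in Mtg16-/- replicate 1. The sign of the receptor differences depended on single libraries. Without Mtg16-/- replicate 3 the log2 fold changes were 0.19 for Egfr, 0.21 for Erbb2 and 0.33 for Erbb3, and without Mtg16-/- replicate 1 they were -0.042, -0.082 and -0.12, and no receptor was called in either fit.

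Lrig1 (chromosome 6, 94604529 to 94700298), which restrains ErbB receptors, had a TPM of 40.5, 60.7 and 61.1 in WT and of 52.5, 62.7 and 49.0 in Mtg16-/-. WT replicate 1 was the lowest library, and the other 2 WT libraries lay between the highest and the middle Mtg16-/- library. The log2 fold change was 0.034 (SE 0.19, limma adjusted p = 0.947), with an interval from 0.759-fold to 1.38-fold. Without WT replicate 1, which had the highest enterocyte and the lowest stem cell marker sum, it was -0.16, and without Mtg16-/- replicate 2 it was -0.066. Relative to Egfr, Lrig1 transcripts were 3.05 ± 0.606 times as abundant in WT and 3.10 ± 0.479 times in Mtg16-/- (SD, n = 3 each). Lrig1 shares 144 exonic bases, 2.58% of its exonic length, with Slc25a26 on the opposite strand, and whether the counting used strand is not given in the sources used here. Slc25a26 had a TPM between 6.35 and 10.05.

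The genes whose 6 values most resembled those of Egfr and Lrig1 were found by the smallest root mean square difference of centred log2(TPM + 1) values among 12267 other tested genes. For Egfr they were Numa1 (0.0333), Bcl2 (0.0407) and Zfp579 (0.0420). For Lrig1 they were Cluh (0.0375), Ephb2 (0.0469) and Nenf (0.0485). Ephb2, an ephrin receptor of the crypt, had a TPM of 19.0, 31.7 and 30.0 in WT and of 25.7, 32.1 and 23.6 in Mtg16-/-, lowest in WT replicate 1 and highest in Mtg16-/- replicate 2 as was Lrig1. Cluh, the nearest gene, was also lowest in WT replicate 1 (152.2 TPM) and highest in Mtg16-/- replicate 2 (219.7 TPM). Nenf was lowest in WT replicate 1 and highest in WT replicate 2. A shared regulation of these genes was not tested.

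**Figure D2:**
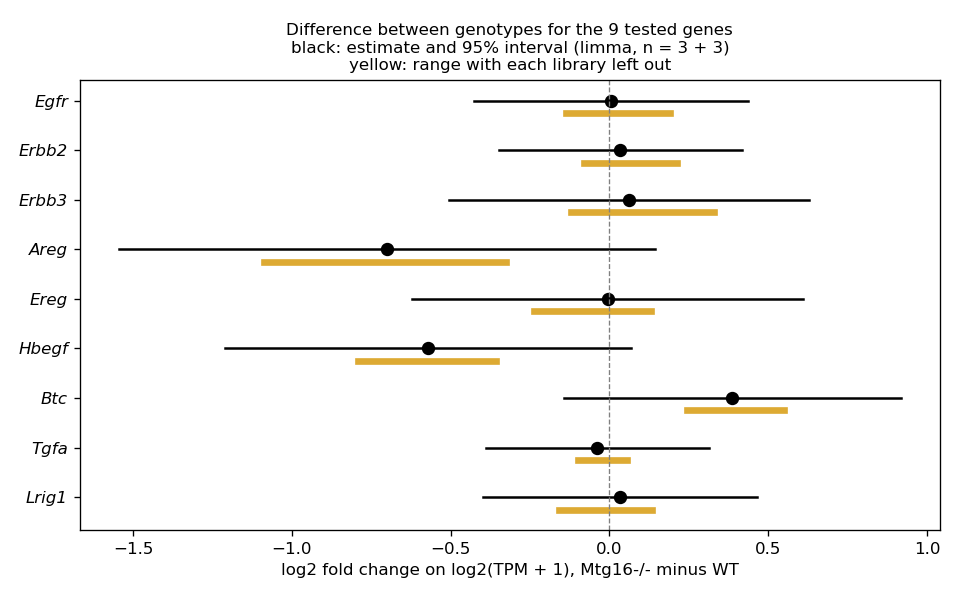
Log2 fold change on the log2(TPM + 1) scale (horizontal axis, Mtg16-/- minus WT) for the 9 tested genes, with the 95% interval from limma in black and the range over the 6 fits that each left out 1 library in yellow. Every black interval crosses 0, and the yellow ranges of Areg, Hbegf and Btc lie on 1 side of it.

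Among the ligands, Hbegf (chromosome 18, 36504927 to 36515805), encoding heparin-binding EGF-like growth factor, had a TPM of 13.6, 7.11 and 10.3 in WT and of 8.78, 6.56 and 4.51 in Mtg16-/-. The genotypes overlapped because WT replicate 2 was below Mtg16-/- replicate 1. The means were 10.3 ± 3.25 and 6.62 ± 2.14 TPM (SD, n = 3 each), a log2 fold change of -0.57 (SE 0.28, limma adjusted p = 0.380), and the exact two-sided permutation test gave p = 0.2, where 3 mice against 3 allow no value below 0.1. The interval ran from 0.432-fold to 1.05-fold, and the unadjusted limma p of 0.0730 was the lowest of the tested members. Hbegf placed the 6 libraries in the same order as the enterocyte marker sum, from WT replicate 1 to Mtg16-/- replicate 3, as did 247 of the 12268 tested genes (2.01%), a match looked for after the values were seen. The part of enterocyte content in the Hbegf values was not tested. The log2 fold change was -0.37 without WT replicate 1 and -0.36 without Mtg16-/- replicate 3.

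Areg (chromosome 5, 91139599 to 91148432), encoding amphiregulin, had a TPM of 7.09, 3.89 and 1.81 in WT and of 2.41, 1.99 and 1.54 in Mtg16-/-. The Mtg16-/- values were close together, and the WT values ranged from below the middle one of these to well above the highest. The log2 fold change was -0.70 (SE 0.37, limma adjusted p = 0.408, exact permutation p = 0.3), the lowest of the members. It was -0.33 without WT replicate 1 and -1.09 without WT replicate 3, so that its size rested on single WT libraries.

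Btc (chromosome 5, 91357261 to 91402994), encoding betacellulin, had the highest log2 fold change of the members. Its TPM was 1.52, 2.25 and 2.11 in WT and 2.07, 2.95 and 3.70 in Mtg16-/-. Mtg16-/- replicate 1 fell among the WT values, and the other Mtg16-/- libraries lay above them. The log2 fold change was 0.39 (SE 0.23, limma adjusted p = 0.448, exact permutation p = 0.3), with an interval from 0.905-fold to 1.89-fold. It was 0.24 without Mtg16-/- replicate 3, where Erbb3, at 0.33, was higher. WT replicate 1, the highest library for Areg and Hbegf, was the lowest for Btc.

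The upstream sequences of Areg and Btc are shown because these ligands had the lowest and the highest log2 fold change of the members. MTG proteins bind no specific DNA sequence by themselves and can be recruited by E proteins and other basic helix-loop-helix factors, which bind E boxes (CANNTG). The 250 bases before each start (RefSeq, GRCm38.p6) are written in the direction of transcription, with every CANNTG match in capitals. They lie at chr5:91139349-91139598 on the plus strand for Areg and at chr5:91402995-91403244 on the minus strand for Btc.
Areg: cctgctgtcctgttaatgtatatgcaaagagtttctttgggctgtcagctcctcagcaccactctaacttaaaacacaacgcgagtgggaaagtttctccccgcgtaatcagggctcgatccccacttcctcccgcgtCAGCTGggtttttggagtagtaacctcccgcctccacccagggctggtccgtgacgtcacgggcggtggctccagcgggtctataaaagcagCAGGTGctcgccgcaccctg
Btc: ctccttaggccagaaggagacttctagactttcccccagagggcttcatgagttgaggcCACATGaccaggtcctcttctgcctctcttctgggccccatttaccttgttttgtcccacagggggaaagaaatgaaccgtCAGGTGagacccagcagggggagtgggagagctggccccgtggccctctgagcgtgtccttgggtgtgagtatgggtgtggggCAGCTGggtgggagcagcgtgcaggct
Areg held 2 matches, 112 and 20 bases before the start, and Btc held 3, at 191, 110 and 27 bases, counted to the first base of the motif. The pattern CANNTG reads the same on both strands, so each match was counted once, and no matches overlapped. In both sequences 1 match was CAGCTG, a form present in 4271 of 32851 promoter windows of this length. Promoters were at hand for 6 of the 10 members, of which Erbb2 and Tgfa held 1 match each and Egfr and Lrig1 none. The windows follow the start used in the promoter table, which for Tgfa and Lrig1 lies inside the gene span given here, so that these 2 windows overlap those spans. Of all windows, 66.2% held at least 1 match, 31.8% at least 2 and 12.2% at least 3. Binding was not measured in these libraries.

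The estimated differences of Tgfa and Ereg between the genotypes were small. Tgfa (chromosome 6, 86195038 to 86275744), encoding transforming growth factor alpha, was the most abundant ligand in every library and the member with the smallest SE, with a TPM of 14.5, 12.0 and 11.6 in WT and of 13.3, 13.04 and 10.7 in Mtg16-/-. Its log2 fold change was -0.039 (SE 0.15, limma adjusted p = 0.921), with an interval from 0.763-fold to 1.24-fold. The log2 fold change became 0.0026 when TPM was rescaled without the defensin genes. Ereg (chromosome 5, 91074617 to 91093649), encoding epiregulin, had a TPM of 1.83, 1.67 and 0.70 in WT and of 1.62, 1.07 and 1.34 in Mtg16-/-. The Mtg16-/- values lay inside the WT range, and the log2 fold change of -0.0058 (SE 0.27, limma adjusted p = 0.995) turned positive under 3 other scalings and a smaller pseudocount. The interval of Ereg, from 0.650-fold to 1.52-fold, leaves room for a change in either direction.

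Nrg1 (chromosome 8, 31807452 to 32891609), a neuregulin that binds ERBB3 and ERBB4, was listed at 0.08 TPM in Mtg16-/- replicate 1 and at 0 in the other 5 libraries. It did not reach the mean of 1 TPM and was not part of the fit (exact two-sided permutation p = 1). Erbb4 and Nrg3 were listed at 0 in every library, and Nrg2 and Epgn did not exceed 0.16 TPM. The neuregulin with the highest level was Nrg4, a ligand of ERBB4, with 3.10 ± 0.885 TPM in WT and 2.70 ± 0.598 TPM in Mtg16-/- (SD, n = 3 each) and a log2 fold change of -0.14 (SE 0.23, limma adjusted p = 0.800). TPM keeps no read number, so the level below which a transcript would be missed is unknown.

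Summed over Tgfa, Hbegf, Areg, Btc and Ereg, ligand transcripts came to 38.6, 26.9 and 26.5 TPM in WT and to 28.2, 25.6 and 21.8 TPM in Mtg16-/-. WT replicate 1 stood above the other libraries, which overlapped between the genotypes. Tgfa and Hbegf together made up between 69.8% and 82.6% of this sum. The share of Tgfa was 37.6%, 44.6% and 43.7% in WT and 47.1%, 50.9% and 49.1% in Mtg16-/-. This was the only 1 of 18 sums, shares and ratios of members computed from these values in which the genotypes did not overlap, and it was not tested. The share of Btc ran from 3.94% to 8.36% in WT and from 7.35% to 17.0% in Mtg16-/-.

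**Figure D3:**
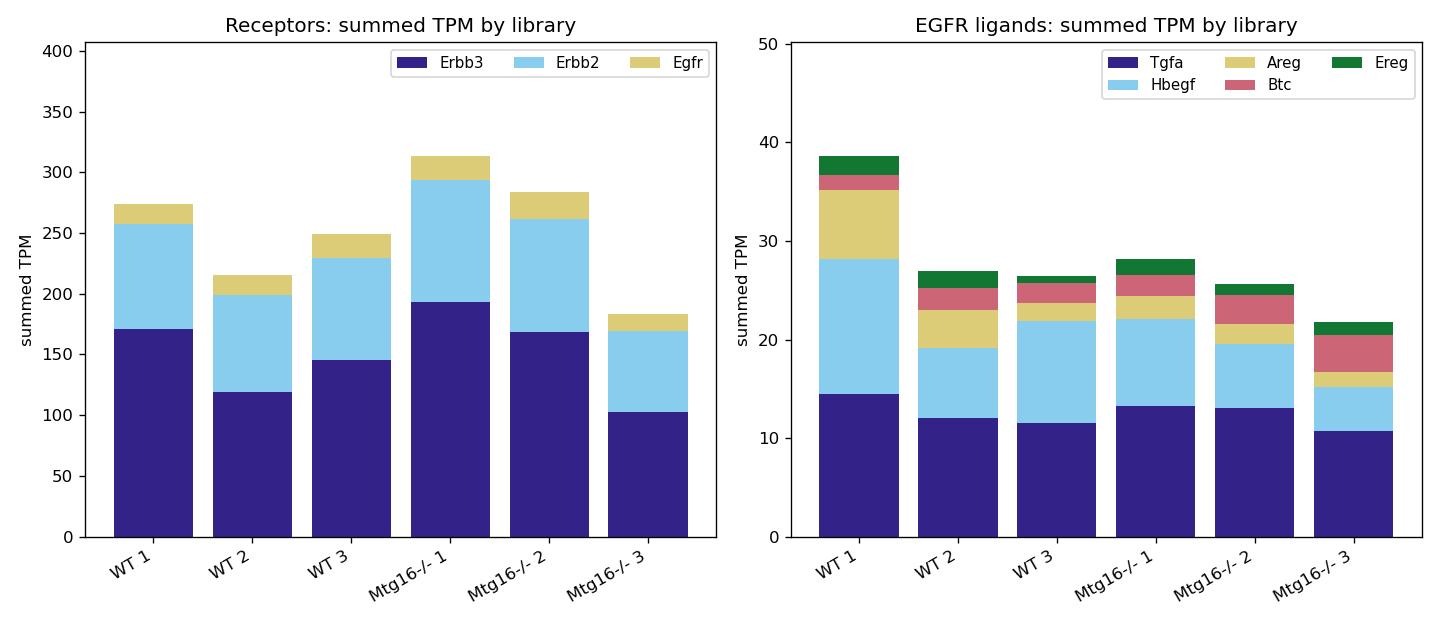
Summed TPM (vertical axes, starting at 0) of 3 receptors (left) and 5 EGFR ligands (right), stacked by gene for each of the 6 libraries. Erbb3 is the largest receptor segment in every bar, and the tallest ligand bar is WT replicate 1, at 38.6 TPM.

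Which library was extreme differed between the members. Mtg16-/- replicate 3 held the lowest value of 6 of the 9 tested members and the highest of Btc. Over all tested genes, 31.5% were lowest in this library. WT replicate 1 held the highest value of Areg, Ereg, Hbegf and Tgfa, 4 of the 9, and the lowest of Btc and Lrig1, and 31.4% of all tested genes were highest there.

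The remaining pathway was described through 66 genes listed by role, of which 60 were tested and none was called by limma. An unadjusted p under 0.05 was found for 11 of the 60, 5 of them higher and 6 lower in Mtg16-/-, beside 14.6% of all tested genes. The genotypes did not overlap in 6 genes that were higher and 8 that were lower in Mtg16-/-, together 23.3% of the 60, near the 21.0% of all tested genes (9.94% higher and 11.1% lower). Over all tested genes the split was 1219 higher and 1360 lower, and it became 1613 and 1028 after rescaling without defensin genes and 1579 and 1125 after quantile normalization.

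Of the other inhibitors, 18 of 19 were tested, 6 with positive and 12 with negative log2 fold changes and a median of -0.072. Spry1, a Sprouty protein that restrains RAS-ERK signaling, had the highest log2 fold change, 0.50 (SE 0.16, limma adjusted p = 0.279). Its TPM was 5.02, 4.92 and 5.57 in WT and 8.24, 8.67 and 6.48 in Mtg16-/-, without overlap. Dusp6, the ERK phosphatase, had the lowest, -0.77 (SE 0.40, limma adjusted p = 0.405), from 35.4, 15.7 and 13.9 TPM in WT and 14.4, 14.7 and 6.59 TPM in Mtg16-/-. WT replicate 1 was far above the rest, and without it the value was -0.36. The LRIG1 paralogs, given outside the naming rule, had small estimates, as did Lrig1. The log2 fold changes were -0.033 for Lrig2 and -0.018 for Lrig3, with limma adjusted p of 0.948 and 0.965. Their 95% intervals ran from 0.730-fold to 1.31-fold and from 0.790-fold to 1.23-fold.

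The 7 genes of ligand release cut ligands from the membrane, help to cut them or, in the case of Timp3, inhibit the cutting. Their median log2 fold change, which pools these roles, was -0.049. Adam17, the main sheddase of TGFA, AREG and HBEGF, had 18.1 ± 2.32 TPM in WT and 15.8 ± 1.09 TPM in Mtg16-/- (SD, n = 3 each) and is named outside the rule. Timp3, an inhibitor of metalloproteinases, had the highest log2 fold change, 0.58 (SE 0.24, limma adjusted p = 0.322). Its TPM was 0.917 ± 0.205 (SD, n = 3) in WT and 1.39, 1.75 and 2.56 in Mtg16-/-, without overlap. With a WT mean under 1 TPM, Timp3 passed the filter only through the Mtg16-/- libraries. Its rank and its place in the counts above are therefore not taken as evidence of a rise. Frmd8, which stabilizes the sheddase complex, had the lowest, -0.34 (SE 0.22, limma adjusted p = 0.483). Of the remaining ligands, Egf had a log2 fold change of 0.37 (SE 0.24, limma adjusted p = 0.488), from 0.900 ± 0.414 TPM in WT to 1.43 ± 0.221 TPM in Mtg16-/- (SD, n = 3 each). Egf too passed the filter only through the Mtg16-/- libraries.

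The 24 genes that relay the receptor signal were all tested, 7 with positive and 17 with negative log2 fold changes and a median of -0.081. Pik3r1, a regulatory subunit of PI3 kinase, had the highest value, 0.55 (SE 0.16, limma adjusted p = 0.263). Its TPM was 48.0, 41.9 and 57.4 in WT and 67.3, 84.7 and 65.4 in Mtg16-/-, so that every Mtg16-/- library was above every WT library. Map2k1, the kinase MEK1, had the lowest, -0.38 (SE 0.16, limma adjusted p = 0.324), with 58.8 TPM as the lowest WT and 58.5 TPM as the highest Mtg16-/- value. Map2k2, the kinase MEK2 and named outside the rule, had a nearly equal log2 fold change of -0.38 (SE 0.13, limma adjusted p = 0.287), also without overlap. After rescaling without defensin genes and after quantile normalization, the genotypes overlapped in Map2k1 and stayed apart in Map2k2.

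Of 10 genes often read as outputs of ERK signaling, 9 were tested, 3 with positive and 6 with negative log2 fold changes and a median of -0.44. The genotypes did not overlap in 5 of them (55.6%), 2 higher and 3 lower in Mtg16-/-, beside 21.0% of all tested genes. Etv4, an ETS transcription factor, had the lowest value, -1.21 (SE 0.34, limma adjusted p = 0.263). Its TPM was 2.76, 6.41 and 2.64 in WT and 0.47, 1.38 and 1.33 in Mtg16-/-. Etv5, its paralog and named outside the rule, had 2.84, 6.05 and 3.16 TPM in WT and 1.96, 1.71 and 2.39 TPM in Mtg16-/-, a log2 fold change of -0.68 (SE 0.27, limma adjusted p = 0.312). Both genes were highest in WT replicate 2 and separated the genotypes. Myc, which is also a Wnt target, had the highest value of the list, with 32.6, 44.8 and 57.2 TPM in WT and 73.9, 105 and 87.2 TPM in Mtg16-/- and a log2 fold change of 0.99 (SE 0.22, limma adjusted p = 0.224). Ccnd1 and Ier3, also named outside the rule, separated the genotypes as well. The count of 5 depends on the scaling. After rescaling without defensin genes the genotypes overlapped in Ier3. Egr1, named outside the rule too, separated them, lower in Mtg16-/-, only after median-ratio rescaling and after quantile normalization. Ccnd1 had 71.8, 109.8 and 134.7 TPM in WT and 137.3, 202.3 and 145.7 TPM in Mtg16-/-. Its log2 fold change was 0.64 (SE 0.25, limma adjusted p = 0.312). That of Ier3 was -0.39 (SE 0.20, limma adjusted p = 0.396). The median of this list thus pools estimates of opposite sign, and none of its genes was called.

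**Figure D4:**
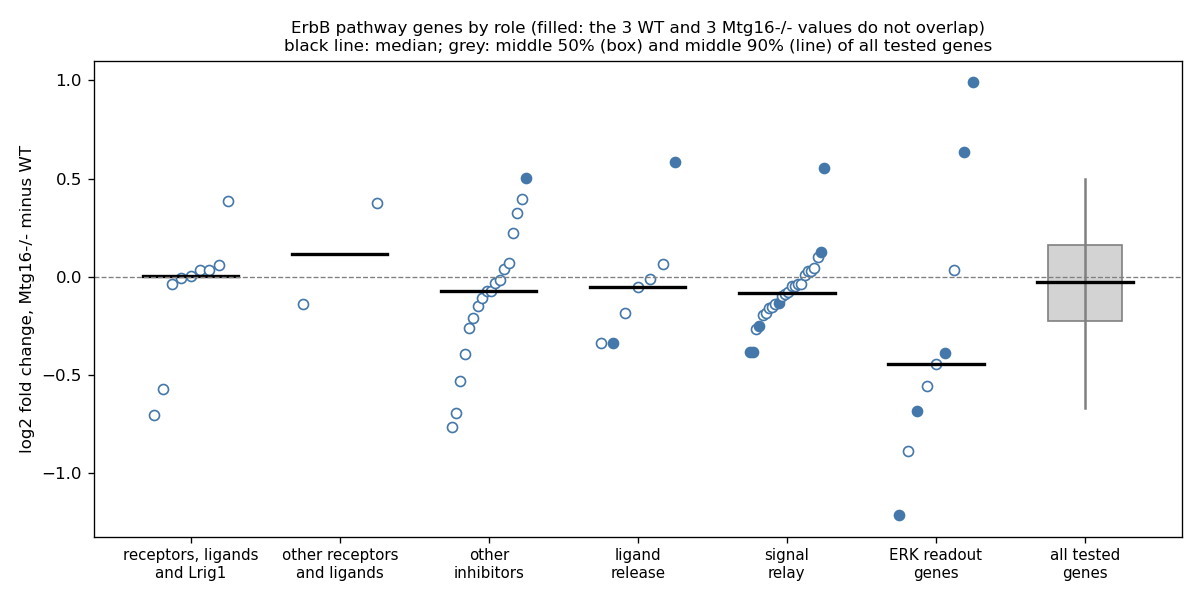
Log2 fold change (vertical axis, Mtg16-/- minus WT) of each tested gene by role, with filled points where the 3 WT and 3 Mtg16-/- values do not overlap, a black line at the median, and the middle 50% and 90% of all tested genes in grey. No point of the receptors, ligands and Lrig1 is filled, and Myc and Etv4 are the highest and lowest points.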

How the data were processed

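RNA was sequenced from intestinal crypts of 3 WT and 3 Mtg16-/- mice. The authors deposited gene-level TPM values, rounded to 2 decimals, in 1 table by gene symbol. The submitters' processing notes name cutadapt 1.9.1, STAR 2.5.2a, RSEM 1.3.0, DESeq2 1.12.3 and the build mm10. TPM keeps no read number, so the depth and its counting error are unknown, and DESeq2 was not run. Values were transformed to log2(TPM + 1), genes with a mean of at least 1 TPM over the 6 libraries were kept, and limma 3.58.1 in R 4.3.3 (lmFit, eBayes with trend, no covariate) was fitted to all of them with Benjamini-Hochberg adjustment and a threshold of 0.1. Fold changes on this scale understate those of low genes. The replicates are described as biological and were taken as separate mice. Other scalings, filters, pseudocounts and fits without each library were tried as alternatives. The calculation was tested on simulated data with changes larger than any estimated for a member. It therefore does not show whether changes of the size seen in the members could be detected. The members and gene lists were chosen with earlier results of these data known. Named genes were the members and, in each pathway list, the tested genes with the largest log2 fold change in each direction, apart from those marked. Positions and promoters are from RefSeq GRCm38.p6, the same assembly as mm10, and exon overlaps from GENCODE vM21. Promoters of Erbb3, Ereg, Hbegf and Nrg1 were not used here. Single values were compared by exact two-sided permutation tests over 20 relabellings (scipy 1.17.1).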

Additional observations from a re-analysis of the deposited data

How the results depend on the processing

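No member was called under any of the 15 alternatives. The number of genes called over the whole table, 4 as reported, was 15 with a minimum mean of 5 TPM, 1 with median-ratio rescaling and with quantile normalization, and 0 without a filter, without the intensity trend, after rescaling without defensin genes and at an adjusted p under 0.05. With each library left out it ranged from 0, without Mtg16-/- replicate 3, to 20, without WT replicate 1. Between libraries that share a replicate number, departures from the group mean had r = 0.429, 0.0753 and 0.237, not all over the limit of 0.1 used here. WT replicate 2 correlated better with Mtg16-/- replicate 3 (0.198). Each Mtg16-/- library still had its highest r with the WT library of the same number. For Mtg16-/- replicate 2 the margin was small (0.0753 against 0.0547 with WT replicate 3). By that limit the numbers were not taken to pair the mice, but these values do not exclude a pairing. With the replicate block, 1201 genes (9.79%) were called, none of them a member, and of the other pathway genes 9 were called in place of 0. Those named above were Myc (limma adjusted p = 0.0148), Etv4 (0.0396), Ccnd1 (0.0744), Map2k2 (0.0818), Dusp6 (0.0941) and Pik3r1 (0.0942). The others were Junb (limma adjusted p = 0.0664), Dusp5 (0.0682) and Fos (0.0897). Myc, Ccnd1 and Pik3r1 were higher in Mtg16-/- and the rest of the 9 lower. Of all 1201 genes called with the block, 385 were higher and 816 lower. Of the members, 2 had an unadjusted limma p under 0.05 with the block, in place of 0: Areg (limma adjusted p = 0.155) and Hbegf (limma adjusted p = 0.154). Of all 12268 tested genes, 2775 had such a value with the block, in place of 1789. Ereg had a log2 fold change of 0.028 with a pseudocount of 0.1, 0.0052 with median-ratio rescaling, 0.039 with quantile normalization and 0.020 without defensin genes, and Tgfa one of 0.0026 in the last setting, all opposite in sign to the reported values. With each library left out the log2 fold change ranged from -0.14 to 0.19 for Egfr, -0.082 to 0.21 for Erbb2, -0.12 to 0.33 for Erbb3, -0.24 to 0.13 for Ereg, -0.10 to 0.054 for Tgfa, -0.16 to 0.13 for Lrig1 and -0.29 to 0.021 for Nrg4. The cause of these changes was not tested. Areg stayed between -1.09 and -0.33, Hbegf between -0.79 and -0.36 and Btc between 0.24 and 0.55 over all alternatives that gave a value, with adjusted p from 0.154 to 0.761.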
